A study of Homo sapiens with 6 samples.

Results

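The promoters described here belong to genes for long noncoding RNAs (lncRNAs) that start away from protein-coding genes. The rule that picked them used position alone, but it was chosen with earlier results of these data known. Of 18390 autosomal lncRNA genes in GENCODE release 44, 13204 have a 5′ end more than 5 kb from every protein-coding transcript start, and the window of 1 kb on either side of that 5′ end was taken as the promoter. These genes are called lincRNA genes below. The usual name "intergenic" holds for the position of the start relative to coding starts only: 9242 of the 5′ ends (70.0%) lie between coding genes, 2803 (21.2%) lie inside a coding gene on the opposite strand and 1159 (8.78%) inside one on the same strand. The median distance to a coding start is 54548 bp. Most members, 9573, have no gene symbol, 2091 carry a LINC number, 65 are named as microRNA hosts and 18 as small nucleolar RNA (snoRNA) hosts.

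Open chromatin was mapped by ATAC-seq, which reads where the transposase Tn5 can cut, in MCF-10A, a non-tumorigenic human breast epithelial line. The parental line (PIK3CA wild type, WT) was set beside knock-in lines with E545K or H1047R in PIK3CA, the catalytic subunit of PI3-kinase, with 2 samples of each. Parental cells had been kept with EGF at 20 ng/ml and the knock-ins without it. All 3 then spent 24 h in a medium with EGF at 0.2 ng/ml and 1% stripped serum, and insulin, hydrocortisone and cholera toxin were shared throughout, so genotype and earlier EGF supply cannot be told apart. The labels do not say whether a knock-in line is 1 clone. Each genotype is represented by 1 peak list made from both samples together, with 98910 peaks in WT, 89416 in E545K and 106747 in H1047R. The lists carry no values per sample and their depth is unknown, so no difference below has a replicate check, and the intervals given (Wilson, 95%) cover counting error only.

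LincRNA genes are transcribed by RNA polymerase II from promoters of their own. Some are rich in CpG dinucleotides and resemble the promoters of housekeeping genes, while others are CpG-poor, resemble enhancers and are open in few cell types. Known roles range from scaffolds of nuclear bodies (NEAT1) through precursors of microRNAs and snoRNAs to transcripts whose production matters more than the RNA. Epithelial cells are known for MIR205HG and MIR31HG, which carry the microRNAs miR-205 and miR-31.

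The sequences below show both kinds of promoter. The first 3 run from 250 bases before to 50 bases from the 5′ end on, in the hg38 reference, and come from genes with a peak in all 3 lists: NEAT1 (chr11:65422524-65422823, plus strand) and MIR31HG (chr9:21559842-21560141, minus strand) have a CpG observed to expected ratio of 0.787 and 0.859, and MIR205HG (chr1:209428567-209428866, plus strand) has 0.0527. Capitals mark GC boxes (GGGCGG on either strand) and, in NEAT1, also TATAAA. MIR205HG holds none of the 15 motifs searched.
NEAT1: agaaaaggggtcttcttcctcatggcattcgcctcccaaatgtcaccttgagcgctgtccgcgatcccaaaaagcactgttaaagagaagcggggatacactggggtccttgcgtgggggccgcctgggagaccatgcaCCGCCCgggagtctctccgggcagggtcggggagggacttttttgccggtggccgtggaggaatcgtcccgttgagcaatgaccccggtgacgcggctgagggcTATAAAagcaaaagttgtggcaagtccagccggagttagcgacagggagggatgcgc
MIR31HG: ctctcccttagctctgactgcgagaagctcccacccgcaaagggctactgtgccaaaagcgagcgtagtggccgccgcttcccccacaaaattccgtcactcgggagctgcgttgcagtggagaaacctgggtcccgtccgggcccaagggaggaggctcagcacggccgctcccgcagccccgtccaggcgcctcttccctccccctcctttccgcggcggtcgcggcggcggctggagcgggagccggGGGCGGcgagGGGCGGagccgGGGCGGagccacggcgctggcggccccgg
MIR205HG: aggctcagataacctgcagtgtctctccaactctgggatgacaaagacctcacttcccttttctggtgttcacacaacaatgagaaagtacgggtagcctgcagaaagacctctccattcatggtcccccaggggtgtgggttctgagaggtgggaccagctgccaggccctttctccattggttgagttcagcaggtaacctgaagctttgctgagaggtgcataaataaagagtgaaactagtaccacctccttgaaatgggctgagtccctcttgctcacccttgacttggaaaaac

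The next 5 sequences hold a peak summit with 75 bases on either side, written 5′ to 3′ on the strand of the gene. AFAP1-AS1 (chr4:7753388-7753538, plus strand, WT summit) has a peak in all 3 lists and holds AP-1 letters (TGANTCA), and was picked among the named genes for that match. The other 4 have the largest area of their pattern of presence among genes with a symbol whose peak overlapped none of a list lacking it: LINC00899 (chr22:46043899-46044049, minus strand) had a peak in the WT list only, LINC01587 (chr4:5524993-5525143, plus strand, E545K summit) in both knock-in lists, LINC02434 (chr4:188159585-188159735, plus strand, WT summit) in WT and E545K, and LINC01356 (chr1:112850402-112850552, minus strand, H1047R summit) in WT and H1047R. Capitals mark TGANTCA in AFAP1-AS1, a FOXO-type GTAAACA in LINC00899, GGAATG (TEAD) in LINC01587, 2 copies of CCGGAAG (ETS) in LINC02434, and CACGTG (E-box) and a GC box in LINC01356, each on either strand.
AFAP1-AS1: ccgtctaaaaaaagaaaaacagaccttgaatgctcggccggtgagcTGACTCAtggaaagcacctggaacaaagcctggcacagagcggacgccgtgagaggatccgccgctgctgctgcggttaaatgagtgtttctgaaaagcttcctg
LINC00899: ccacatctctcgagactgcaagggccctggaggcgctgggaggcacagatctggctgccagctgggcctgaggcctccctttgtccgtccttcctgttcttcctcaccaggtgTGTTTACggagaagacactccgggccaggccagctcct
LINC01587: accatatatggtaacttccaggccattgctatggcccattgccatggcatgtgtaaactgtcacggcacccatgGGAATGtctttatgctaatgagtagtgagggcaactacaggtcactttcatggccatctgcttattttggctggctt
LINC02434: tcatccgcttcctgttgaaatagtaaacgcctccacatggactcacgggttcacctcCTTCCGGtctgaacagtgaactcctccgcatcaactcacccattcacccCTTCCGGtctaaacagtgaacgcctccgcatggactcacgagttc
LINC01356: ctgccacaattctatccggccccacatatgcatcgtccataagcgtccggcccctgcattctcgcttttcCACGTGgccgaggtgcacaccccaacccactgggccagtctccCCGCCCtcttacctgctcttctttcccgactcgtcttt

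About 1 in 5 lincRNA promoters had a peak, and the share was nearly the same in the 3 lists. A peak overlapped the window of 2525 members in WT (19.1%, interval 18.5 to 19.8), 2456 in E545K (18.6%, 17.9 to 19.3) and 2645 in H1047R (20.0%, 19.4 to 20.7). Promoters of the 19111 autosomal coding genes had a peak in 65.3%, 65.4% and 66.1%, and those of the 5186 lncRNA genes nearer to a coding start in 64.0%, 64.0% and 64.5%. Windows of the same size moved 10 kb upstream of each lincRNA start held a peak in 11.2%, 10.9% and 12.3%, and windows 10 kb downstream in 11.5%, 10.8% and 12.0%, so the starts stood above their own surroundings in each list. At the 5′ end itself, 11.8% of lincRNA starts in WT, 11.8% in E545K and 12.3% in H1047R lay under a peak, against 3.29%, 3.45% and 3.45% at 5 kb upstream.

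**Figure D1:**
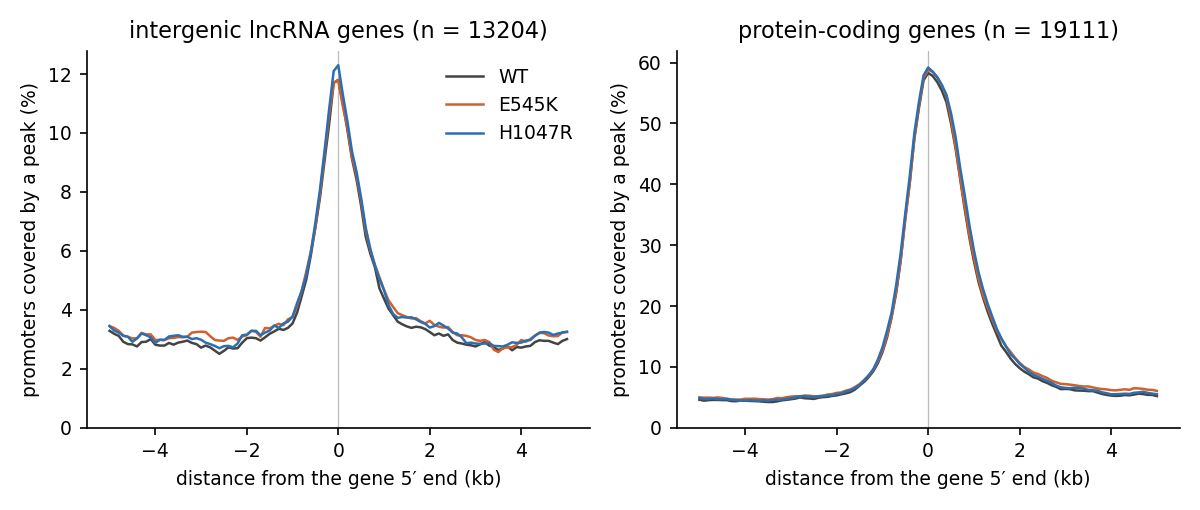
Share of promoters (vertical axis, percent) covered by a peak at each distance from the gene 5′ end (horizontal axis, kb, steps of 100 bp, upstream to the left) for lincRNA genes (left) and coding genes (right), with 1 line per peak list. The lincRNA curves peak at the 5′ end at 11.8%, 11.8% and 12.3%, and the coding curves at 58.3%, 58.8% and 59.2%. The vertical scales differ.

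Peaks at lincRNA starts were often not centred on the 5′ end. The summit of the largest peak lay within 250 bp of the 5′ end in 47.3% of members with a peak in WT, 46.8% in E545K and 46.5% in H1047R, with a median offset of -36, -37 and -35 bp, upstream being negative. In 12.3%, 13.8% and 12.2% the summit lay outside the window and the peak only reached into it. Of the window, a median of 33.5%, 35.9% and 32.6% was covered where a peak was present, against 65.5%, 65.2% and 66.9% at coding promoters.

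Which lincRNA promoters were open depended on the kind of gene. Hosts of snoRNAs, whose introns carry the RNAs that guide modification of ribosomal RNA, were open in 16 of 18 cases in every list, the exceptions being SNHG14, the long transcript of the imprinted Prader-Willi region, and SNHG27. Among microRNA hosts, 25 of 65 had a peak in WT, 25 in E545K and 27 in H1047R. Genes with a LINC number had one in 20.9%, 20.1% and 22.4%, and genes without a symbol in 17.3%, 16.8% and 18.1%. Genes with 5 or more annotated transcripts had a peak in 30.6%, 28.7% and 30.7%, and those with 1 transcript in 16.6%, 16.3% and 17.8%. Members whose window overlapped that of another member were open in all 3 lists in 35.2% of cases (32.5 to 37.9), against 14.5% (13.9 to 15.2) for lone ones. Such neighbours can share a peak: the 2525 members with a WT peak held 2310 distinct largest peaks.

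The share with a peak was lower far from coding genes. It stood at 22.8% in WT, 23.4% in E545K and 24.1% in H1047R for starts 5 to 10 kb from a coding start, was 23.2%, 22.3% and 23.7% at 20 to 50 kb, and stood at 14.4%, 13.9% and 15.5% at 100 to 500 kb and 8.14%, 7.75% and 8.34% beyond 500 kb. Just inside the limit of the definition, at 5 to 6 kb, 82, 86 and 87 of 323 members had a peak, and just outside it, at 4 to 5 kb, 80, 85 and 91 of 345 lncRNA genes did. Starts between coding genes had a peak in 20.9%, 20.2% and 21.7%, more than starts on the same strand inside a coding gene, with 12.1%, 12.2% and 13.7%. Members whose nearest coding promoter had a peak in all 3 lists had one themselves in all 3 in 18.6% (17.7 to 19.4), and members whose nearest coding promoter had none in 13.3% (12.3 to 14.3). By chromosome the share open in all 3 ran from 10.2% on chromosome 4 to 23.4% on chromosome 1.

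CpG content went with openness. The median CpG ratio of the 300 bases at the start was 0.345 (interval of the median 0.328 to 0.360) in members with a peak in all 3 lists, 0.254 (0.234 to 0.276) in those with a peak in some lists and 0.221 (0.216 to 0.225) in those with none. The GC content was likewise highest in the first group and lowest in the last. With a ratio under 0.2, 11.1% of 5600 members were open in all 3 lists, and with a ratio over 0.8, 49.8% of 693 were. Coding promoters in the same classes were open in 21.1% and 87.4%, so lincRNA starts had fewer peaks than coding starts of like CpG content in each of the 5 classes. A start was called CpG-rich when its ratio was above 0.6 and its GC content above 50%. By that measure 1268 lincRNA starts (9.60%) were CpG-rich, of which 46.5% were open in all 3 lists, against 13.2% of the 11936 CpG-poor starts. Among coding genes 55.5% of starts were CpG-rich.

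**Figure D2:**
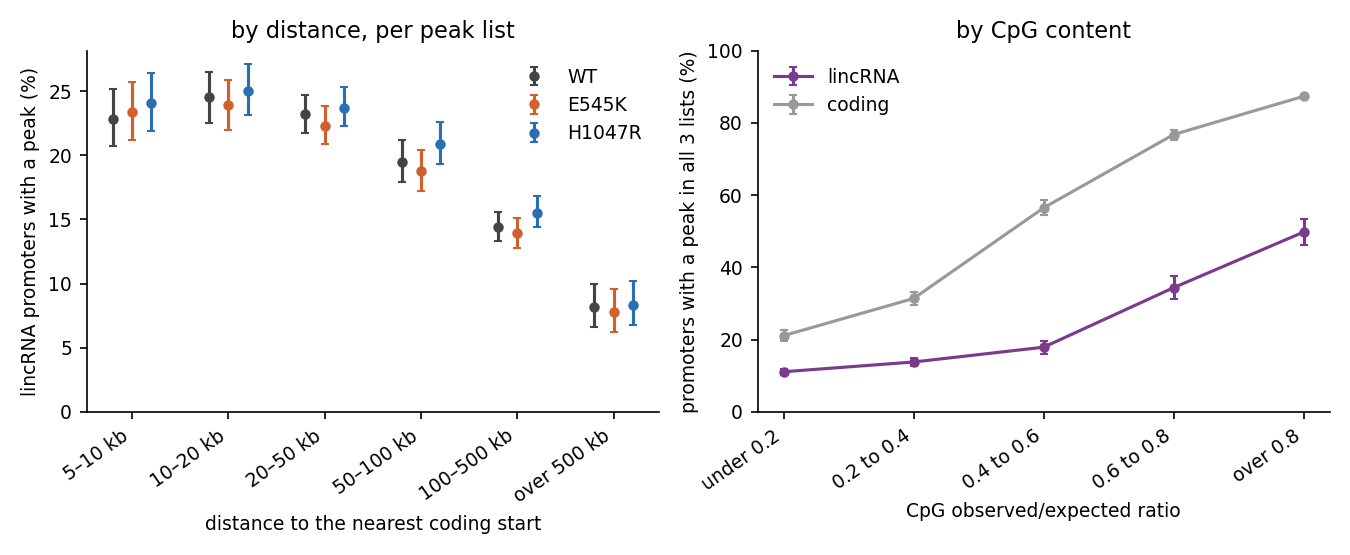
Left, lincRNA promoters with a peak (percent) by distance to the nearest coding start, with 1 point per peak list. Right, promoters with a peak in all 3 lists (percent) by CpG observed to expected ratio of the 300 bases at the start, for lincRNA and coding genes. Bars are Wilson 95% intervals. The shares on the left drop from 22.8% to 24.1% at 5 to 10 kb to 7.75% to 8.34% beyond 500 kb, and both lines on the right climb, from 11.1% to 49.8% for lincRNA genes.

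The largest peaks belonged to a few broad open domains. The area of a peak, given by the authors for each peak, is that under the curve of the peak caller over the whole peak, so it depends on width and height, and it is used here to rank peaks within a list. ADAMTSL4-AS1 on chromosome 1 led: its areas of 76972 (WT), 82111 (E545K) and 48056 (H1047R) came from peaks of 28270, 27483 and 18311 bp. MIR23AHG on chromosome 19, host of miR-23a, miR-27a and miR-24, had 54517, 44813 and 35216. MIR205HG, whose product is a microRNA of epithelial cells, had 37992, 34334 and 25351 over 9106, 9595 and 8705 bp. LINC03061 on chromosome 13, whose nearest coding start is that of IRS2, had 48546, 44085 and 37997, ENSG00000253736 beside DUSP1 on chromosome 5 had 58548, 57139 and 47268, and KRT87P in the keratin cluster on chromosome 12 had 34772, 47568 and 30579. All of these lay at the top of each list, with percentiles that round to 100.

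NEAT1, which builds paraspeckles, shows how such areas depend on where 1 peak ends. Its start lies under a peak of 21210 bp in WT and 21258 bp in E545K but of 9032 bp in H1047R, and the areas are 54899, 55604 and 27718. Within 20 kb on either side of the NEAT1 start, 2 peaks in WT, 3 in E545K and 9 in H1047R together covered 26.7, 26.6 and 27.7 kb. The open length was thus alike while the domain was cut into more peaks in H1047R. The same holds for ENSG00000291174, between NEAT1 and MALAT1, where the peak at the start had an area of 55814, 39127 and 4937 and the covered length within 20 kb was 26.1, 25.8 and 24.7 kb. Areas of broad domains are therefore not read as differences between the lists.

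Lists of lncRNA genes named for their roles were then examined, and the counts refer to their members under the 5 kb rule. The lists, too, were chosen with earlier results of these data known. Of 7 abundant lncRNAs (MALAT1, NEAT1, NORAD, KCNQ1OT1, CYTOR, DANCR and EPB41L4A-AS1), 7 had a peak in all 3 lists, beside 16.4% of all members. DANCR, known for keeping epidermal progenitors undifferentiated, had areas of 5969, 6702 and 5904, and MALAT1, of nuclear speckles, 4230, 3033 and 4089. KCNQ1OT1, the imprinted transcript that silences neighbours in cis, had 3625, 4116 and 3400.

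Among 12 lncRNAs tied to epithelium or carcinoma, 6 had a peak in all 3 lists, beside 16.4% of all members. Those 6 were MIR205HG, MIR31HG, UCA1, LINC01503, HCP5 and AFAP1-AS1. MIR31HG had areas of 2071 (WT), 1851 (E545K) and 1651 (H1047R), with the summit 34 bp past the 5′ end in each. AFAP1-AS1, often raised in carcinomas, had 767, 661 and 1567, a percentile of 56.0, 52.1 and 77.3. CASC9 had a peak in WT alone, of area 240, close to the smallest area in the lists, which is 200. The other 5 had no peak at the gene 5′ end. Of these, LINC00511, SOX9-AS1 and LINC02487 were open at inner starts. LINC00511 was so at 54 of its 84 annotated starts in WT, 53 in E545K and 61 in H1047R. LINC00342 and TRERNA1 had no peak at any annotated start in any list.

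Of 13 lncRNAs studied in breast cancer, 2 (CCAT2 and LINC01139) had a peak in all 3 lists (15.4%, near the 16.4% of all members). The other 11 had none at the gene 5′ end, as had 77.8% of all members. Of these, LINP1 was open at 2 of its 4 annotated starts in each list and LINC00992 at 1 of 2. Those without a peak at any annotated start include DSCAM-AS1 and LINC01016, which belong to oestrogen receptor positive cells. CCAT2 on chromosome 8 had areas of 9153, 7721 and 7832. PVT1, on the same arm, had 4229, 4379 and 4499 with the summit within 11 bp of its start. In the inflammation list 3 of 8 had a peak in all 3 (37.5%, beside the same 16.4%). They were CHROMR with 2073, 1554 and 1827, MIR3142HG, host of miR-146a, with 1588, 1536 and 1806, and LUCAT1 with 1005, 1079 and 1392. Of 10 in the list on TGF-beta and mesenchymal transition, 2 did (20.0%, near that share). They were MIR210HG, host of the hypoxia-induced miR-210, with 4337, 3687 and 4042, and MIR193BHG with 2491, 4018 and 4136. At MIR193BHG the WT window held 2 peaks, the larger of 1098 bp, where E545K and H1047R had 1 peak of 2374 and 2283 bp. The MIR193BHG areas are therefore not read as a difference. H19 and MEG3, both imprinted, had none at the 5′ end, and MIR100HG and MIR99AHG had none there but were open at inner starts, MIR100HG at 45, 55 and 44 of 87.

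Markers of other cell types had peaks about as often as lincRNA genes at large. In all 3 lists, 3 of 11 neural lncRNAs were open (27.3%), 2 of 9 of muscle and mesenchyme (22.2%), 2 of 10 of blood (20.0%), 1 of 9 of liver (11.1%) and 0 of 12 of pluripotent cells, beside 16.4% of all members. The neural list was led by MIR9-1HG with 9984, 9462 and 9478, and the blood list by MIR181A1HG with 3142, 3007 and 3401. RMST (neural), MIR1-1HG and MIR133A1HG (muscle), MIR122HG (liver) and LINC-ROR, ESRG and MIR302CHG (pluripotent) had no peak at any annotated start in any list. DLX6-AS1, of interneurons, had none at the 5′ end but was open at 3, 3 and 1 of its 11 starts, and MIR137HG, host of the neural miR-137, likewise at 0, 6 and 0 of 8. LINC01122 (neural), LINC00926 (blood), LINC01485 (liver), MEG3 (muscle and mesenchyme) and LINC00545 (pluripotent) also had a peak at an inner start in at least 1 list. Among lncRNAs tied to p53, PVT1 alone of 4 was open in all 3. In the HOX cluster list, which holds 2 members, HOXA-AS2 was open in all 3. Of 11 lncRNAs listed as imprinted 3 were (27.3%): KCNQ1OT1, AIRN and LINC01139. The last is also in the breast cancer list, and its imprinting was not checked. These lists describe which starts were open and are not evidence of transcription.

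Of the 65 microRNA hosts, 37 had no peak at the gene 5′ end in any list, 23 had one in all 3 and 5 in some lists. Of all members, 77.8% had none and 16.4% had one in all 3. Some of the 37 hosts were open at inner starts, such as MIR4435-2HG at 43, 43 and 47 of 73 and MIR34AHG at 3 of 5 in each list. The shared peaks ranged from large to small. MIR17HG, host of the miR-17-92 cluster, had areas of 10852, 10007 and 10911, and MIRLET7A1HG, which carries let-7 microRNAs, had 9614, 8786 and 8981. MIR7-3HG, by contrast, had 485, 257 and 480. The 5 open in some lists, beside 5.79% of all members, were MIR1302-2HG and MIR9-3HG in WT and H1047R, MIR365BHG in both knock-ins, MIR202HG in E545K and MIR3150BHG in H1047R. MIR1302-2HG had 222 in WT and 232 in H1047R, near the smallest area of 200, and MIR9-3HG had 291 and 280. At its 45 annotated starts, MIR9-3HG had a peak at 29 in WT, 19 in E545K and 27 in H1047R. The MIR202HG peak had an area of 355 and its summit outside the window, at -1404 bp. MIR365BHG, host of miR-365b, had 391 in E545K and 1101 in H1047R. The H1047R peak at MIR3150BHG had an area of 2401, but it reached out of the window and overlapped a peak of another list.

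Members farthest from coding genes could still be open. Among those with a peak in all 3 lists, the most remote with a symbol were LSP1P5, 2927 kb from a coding start, with areas of 624, 474 and 579, and MIR924HG, 2155 kb away, with 3031, 2084 and 2459. LSP1P5, ENSG00000286698 and ENSG00000279973 lie near the centromeres of chromosomes 2 and 22, where copies of a sequence can share reads and positions are less certain.

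Peaks at lincRNA promoters were weaker than at coding promoters. Their median percentile by area was 66.5 of 2520 peaks in WT, 64.2 of 2454 in E545K and 65.4 of 2668 in H1047R. Peaks at coding promoters had 89.5, 88.2 and 90.3, and peaks at neither had 45.0, 44.5 and 45.3. The median width was 662, 734 and 645 bp, beside 1346, 1355 and 1385 bp at coding promoters. Peaks at CpG-rich lincRNA starts were stronger, with a median percentile of 85.6, 83.4 and 86.9, than at CpG-poor ones, with 63.7, 62.5 and 62.5. Their summit also lay within 250 bp of the 5′ end more often, in 67.6%, 68.5% and 68.7% against 40.6%, 39.6% and 39.6%.

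Most open lincRNA promoters were open in every list. Of 2934 members with a peak anywhere, 2169 (73.9%) had one in all 3 lists and 765 (26.1%) in some lists only. The latter share was 6.90% at coding promoters and 8.07% at the other lncRNA promoters, and 10.0% over all promoters with a peak. Of merged peak regions genome-wide, 38.8% were in some lists only. The 765 comprised 184 members open in H1047R only, 178 in WT and H1047R, 116 in WT only, 114 in both knock-ins, 111 in E545K only and 62 in WT and E545K.

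The pairwise counts read as follows against all promoters. Of 2750 members open in WT or E545K, 225 (8.18%, 7.21 to 9.27) were open in E545K and not WT, beside 3.41% over all coding and lncRNA promoters, and 294 (10.7%, 9.59 to 11.9) in WT and not E545K, beside 3.60%. Of 2823 open in WT or H1047R, 298 (10.6%, 9.48 to 11.7) were open in H1047R and not WT, beside 3.93%, and 178 (6.31%, 5.47 to 7.26) in WT and not H1047R, beside 2.38%. Between the knock-ins, 173 of 2818 (6.14%) were open in E545K and not H1047R, beside 2.66%, and 362 (12.8%) in H1047R and not E545K, beside 4.40%. The longer list had the higher count in each pair. With each list reduced to its 89416 largest peaks, the order turned: 284 were open in E545K and not WT against 214 in WT and not E545K, and 263 in E545K and not H1047R against 196 in H1047R and not E545K. For WT and H1047R the reduced lists gave 228 in H1047R and not WT, and 225 in WT and not H1047R.

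Weak peaks made up most of what differed. The median percentile of peaks at members open in WT only was 17.4, in E545K only 22.1 and in H1047R only 13.7, while at members open in all 3 it was 76.8, 74.3 and 78.4. Each list was cut into 4 equal parts by area, and in each part the peaks without a partner (an overlapping peak of the other list) were counted. In the weakest part of the WT list, 50.3% (45.6 to 55.0) of lincRNA promoter peaks had no E545K partner, beside 43.4% (39.8 to 47.2) at coding promoters and 56.7% (56.1 to 57.4) elsewhere. In the strongest part the shares were 0.101%, 0.0460% and 0.459%. For H1047R peaks without a WT partner the weakest part gave 44.8%, 43.0% and 46.9%, and the strongest 0.951% (0.517 to 1.74), 0.145% (0.0848 to 0.248) and 0.696%. For E545K peaks without a WT partner the part below the strongest gave 6.50% (4.79 to 8.76), 2.40% (1.75 to 3.27) and 4.72%. In some parts the intervals of lincRNA and coding peaks overlapped. In the second weakest part of E545K the coding share was the higher, 18.5% (16.0 to 21.4) against 14.3% (11.4 to 17.8). In the part of H1047R below the strongest the coding share was the lower, 3.62% (2.73 to 4.80) against 5.96% (4.35 to 8.10). The sets differ in how many weak peaks they hold: 17.2% of lincRNA promoter peaks in WT lay in the weakest part and 39.7% in the strongest, against 5.93% and 75.3% at coding promoters.

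**Figure D3:**
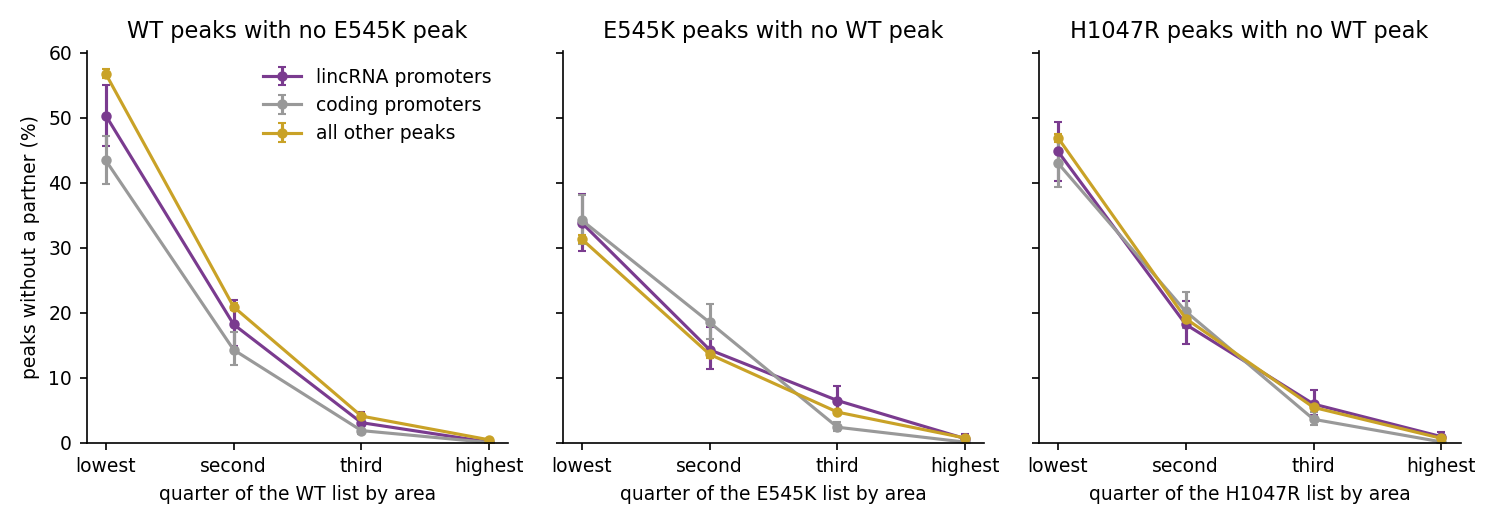
Share of peaks without an overlapping peak in the other list (vertical axis, percent) by part of the list by area (horizontal axis, 4 equal parts), for peaks at lincRNA promoters, at coding promoters and elsewhere, in 3 comparisons. Bars are Wilson 95% intervals. In each panel the shares drop from 31.3% to 56.7% in the weakest part to at most 0.951% in the strongest.

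The share open in some lists only was also lower at a higher CpG ratio. Peaks at CpG-rich starts were stronger too, as given above, and the part of peak strength in this was not tested. Of members with a peak, 32.1% (29.1 to 35.2) with a CpG ratio under 0.2 were open in some lists only, and 30 of 375 (5.66% to 11.2%) with a ratio over 0.8. Coding promoters in the same classes gave 23.6% and 2.84%.

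Members open in some lists only are named here where their peak overlapped no peak of a list lacking it. Members whose peak reached a partner outside the window could have larger areas. In WT only, LINC00899 near WNT7B had 1040 (percentile 65.9), with its summit 879 bp into the gene, LINC01566 had 894 and HAGLROS in the HOXD cluster 746. These WT peaks had no overlapping peak in either knock-in list. In E545K only, TONSL-AS1 had 1878 (percentile 80.7), ENSG00000290066 on chromosome 1 had 1767 and ENSG00000261044 beside ARC 1680. The summits at TONSL-AS1 and ENSG00000261044 had offsets of -2870 and -2684 bp, upstream of the window, so these peaks only reached into it. In H1047R only, ENSG00000289316 near NDRG1 had 3534 (percentile 91.6), the largest area in this group without a partner, ENSG00000228826 on chromosome 1 had 2111 and ENSG00000259627 on chromosome 15, near TPM1, had 1907. The summits at ENSG00000289316 and ENSG00000259627 were upstream of the window too, at -1596 and -1881 bp.

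Some members open in both knock-ins and not in WT, or in WT and 1 knock-in, had unlike areas in their lists and others like ones, the areas not being scaled between lists. LINC01587 on chromosome 4 had 2254 in E545K and 775 in H1047R, and ENSG00000287454 near ELK3 had 1901 and 1516. LINC03054 had 311 and 2207. In WT and E545K, LINC02434 had 3146 and 370, ZFPM2-AS1 2822 and 2421, and GAPLINC, named from gastric adenocarcinoma, 792 and 2468. The ZFPM2-AS1 peaks had percentiles of 87.9 and 85.6, and the H1047R list had no peak there. In WT and H1047R, ENSG00000290062 near NEDD9 had 1944 and 828, and LINC01356, from the pluripotent list, 1165 and 1541. Of the 6 annotated LINC01356 starts, 2 had a peak in E545K, against 5 in WT and 5 in H1047R.

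**Figure D4:**
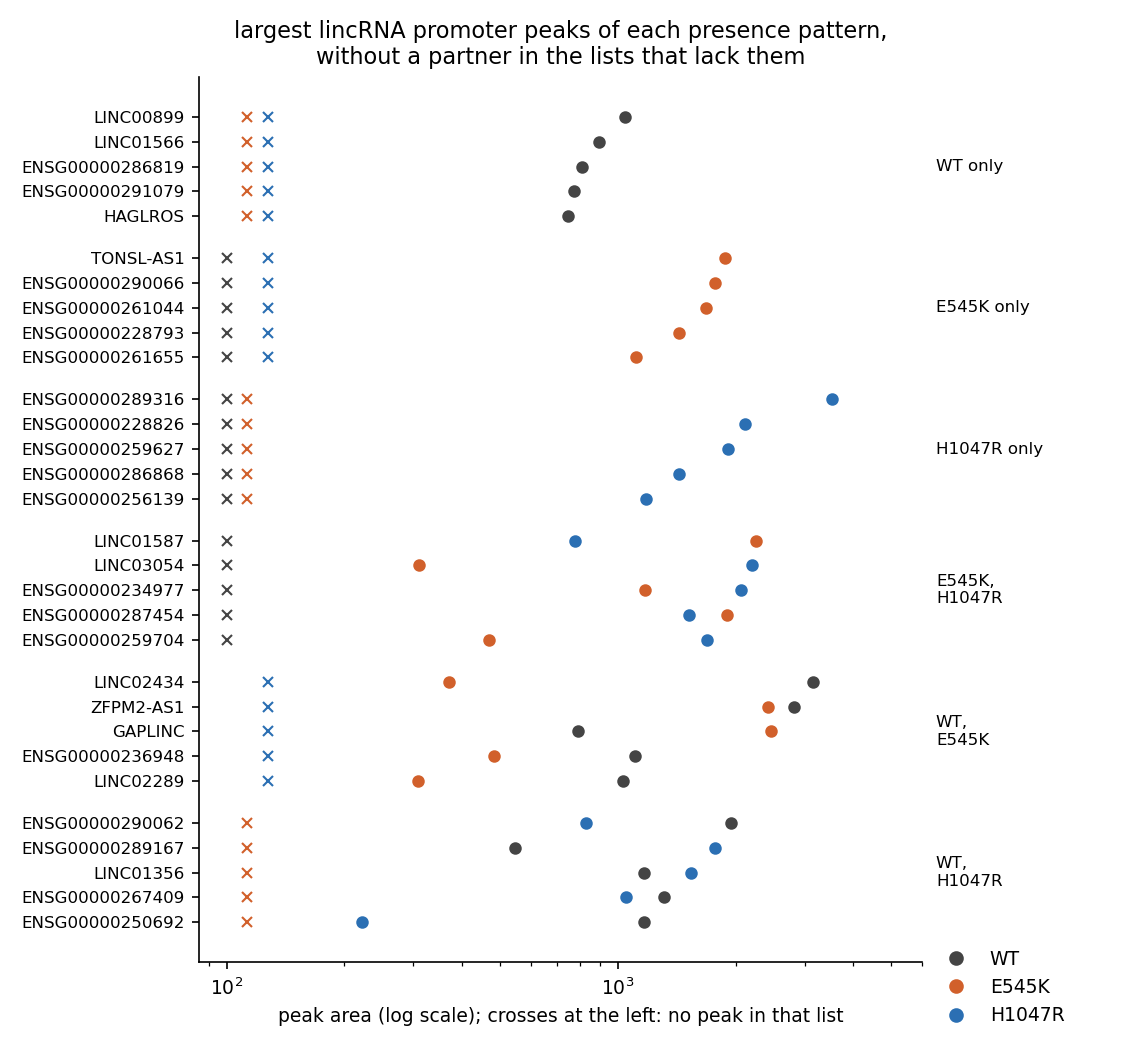
Peak area (horizontal axis, log scale) at the 5 members with the largest area of each presence pattern among those whose peak overlaps no peak of a list lacking it, named at the left, with 1 colour per peak list and crosses where a list has no peak. The largest area is 3534, at ENSG00000289316 in H1047R, and ZFPM2-AS1 has areas of 2822 and 2421 in the lists that hold it.

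Of the E545K-only members, a minority lay close together. Chromosome 8 held 19 of the 111, and 11 of these lay beyond 140 Mb, where there are 37 members in all. In the same stretch 0 members were open in H1047R only and 0 in WT only, and 7 of 106 coding promoters were open in E545K only, against 162 of 19111 in all. TONSL-AS1, ENSG00000261044, ENSG00000261655 and PEG13, an imprinted transcript near TRAPPC9 with an area of 629, are in this stretch. The peak at PEG13 overlapped one of another list outside the window. The next highest counts of E545K-only members were 14 on chromosome 1 and 11 on chromosome 16. Copy number was not measured here, and its part in these counts was not tested.

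The letters near the summits differed between the classes of lincRNA promoter. TGANTCA, the AP-1 consensus bound by FOS and JUN proteins, occurred within 100 bases of the summit in 35.3% (33.2 to 37.6) of the largest WT peaks at CpG-poor lincRNA starts and 7.22% (5.33 to 9.72) at CpG-rich ones. Peaks at CpG-poor coding starts had it in 14.3% (13.2 to 15.5), at CpG-rich coding starts in 3.65%, and peaks at neither kind of promoter in 38.4%. The GC box GGGCGG, bound by SP and KLF factors, was in 65.7% of peaks at CpG-rich lincRNA starts and 15.3% at CpG-poor ones, and in 70.4% and 45.5% at coding starts. In both motifs the CpG-poor lincRNA peaks were nearer to the peaks outside promoters than to those at CpG-poor coding starts. The GC box holds a CpG itself, so its share follows the class in part by construction. CCGGAAG, the ETS consensus, was in 12.6% and 2.86% of the WT peaks at CpG-rich and CpG-poor lincRNA starts.

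**Figure D5:**
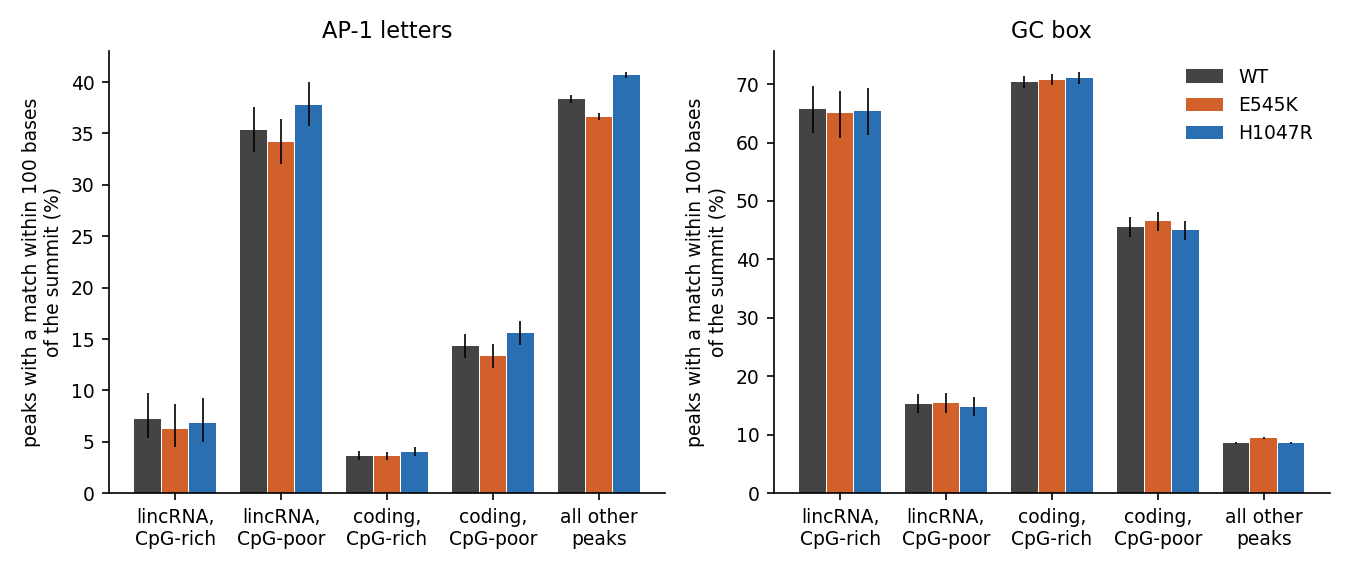
Peaks with a match within 100 bases of the summit (vertical axis, percent) for TGANTCA (left) and GGGCGG (right), by class of the start they overlap, with 1 bar per peak list and Wilson 95% intervals. For TGANTCA, CpG-poor lincRNA starts stand at 34.2% to 37.8%, near all other peaks at 36.6% to 40.7%, while CpG-rich lincRNA starts stand at 6.29% to 7.22%. The vertical scales differ.

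In the 300 bases at the start, where all members can be counted, TGANTCA was in 16.5% (15.0 to 18.1) of members open in all 3 lists, 15.0% of those open in some and 10.3% (9.71 to 10.9) of those without a peak, and in 6.38% of all coding promoters. The GC box was in 30.5%, 17.6%, 9.77% and 52.6%. CTCF core letters, AGGGGGCGC, were in 1.80%, 0.392%, 0.292% and 2.31%. TATAAA went the other way, with 11.9%, 16.2%, 20.5% and 10.9%. GGAATG (TEAD) was in 17.7%, 17.8%, 16.8% and 12.8%, with overlapping intervals among the lincRNA groups. Such matches are letters only, not sites, and they follow base composition, which differed between these groups.

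AP-1 letters also differed among members open in 1 list only. They were near the summit in 79 of 179 peaks (44.1%, 37.1 to 51.5) at members open in H1047R only, 29 of 113 (25.7%, 18.5 to 34.4) in WT only and 11 of 109 (10.1%, 5.73 to 17.2) in E545K only. All peaks found in just 1 list showed the same order, with 44.3%, 28.2% and 13.2%, and all peaks of the lists had 36.9%, 34.4% and 32.5%. Peaks at members open in E545K only were wider and richer in GC, with a median width of 721 bp and 56.7% GC round the summit, against 311 bp and 48.8% for WT only and 307 bp and 49.8% for H1047R only. Without chromosome 8 the E545K share was 10.0% of 90 peaks. The part of width and base composition in the AP-1 shares was not tested.

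Among 1822 members with exactly 1 peak in each list, the percentile of the peak was compared with that in WT. Ranks from lists of different lengths do not show a change in accessibility and are given as a description. The shift had a median of -1.79 percentage points in E545K, with 28.8% of members above 0, and 0.0617 in H1047R, with 51.5% above 0. At coding promoters the medians were -0.976 and 0.390. From the 5th to the 95th percentile the lincRNA shifts ran from -23.7 to 16.3 in E545K and from -17.1 to 21.5 in H1047R. Coding promoters start nearer the top of the bounded scale, with a mean WT percentile of 86.2 against 68.9, so the spreads of the sets are not compared. A shift above 20 points was found at 64 members in E545K and 104 in H1047R, and a shift of more than 20 points the other way at 127 and 68, of 1822. At coding promoters the counts were 114 and 191, and 144 and 72, of 10596, under the same limit of the scale.

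Some of the widest shifts followed from where peaks were split. LINC02606 near SPSB1 had the lowest H1047R shift, -91.6, with 4148 (WT), 3053 (E545K) and 208 (H1047R) in the window, yet over the whole stretch of 1.66 kb H1047R had a second peak just outside the window and a largest area of 2831. LINC03040 on chromosome 6 had 1690, 219 and 248 in the window, and 1690, 944 and 1766 over the whole stretch. ENSG00000266651, which shares a peak with SNHG29 in E545K, had 542, 4924 and 519 in the window and 5410, 4924 and 5035 over the stretch.

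Other wide shifts were the same over the whole peak. These members were picked for the largest shifts among the 1822. Most have a lowest area near 200, the smallest area in the lists. ENSG00000258657 on chromosome 14 had 2468 in WT, 320 in E545K and 404 in H1047R, so both knock-in lists rank it lower. ENSG00000236724 on chromosome 9, whose nearest coding start is that of GLIS3, had 208, 397 and 1567, and ENSG00000285525 on chromosome 1 had 242, 409 and 1450. In these, the WT area was lowest and the H1047R area highest, the areas not being scaled between lists. ENSG00000289326 on chromosome 2 had 275, 1106 and 1119, LINC02139 on chromosome 16 had 261, 744 and 1200, and LINC02779 on chromosome 1 had 264, 962 and 347. ENSG00000248749 on chromosome 4, with 1177, 260 and 1107, and ENSG00000267009 on chromosome 17, with 951, 209 and 901, were low in E545K alone.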

How the data were processed

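Peak lists of 6 ATAC-seq samples, 2 per genotype, were used. The submitters' processing notes name Trim Galore 0.4.0, cutadapt, FastQC, SAMtools, the peak caller Genrich 0.6.1 and the build hg38, without further settings. No source used here names the aligner. The authors deposited 1 signal value per peak, the summed area below Genrich's curve, and a −log10 p at the summit, both from the 2 samples of a genotype together. No value was scaled between lists. No peak ran past the end of an hg38 chromosome, and gene models were those of GENCODE release 44.

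A promoter had a peak when at least 1 bp of a peak overlapped its window. Ranks are percentiles of area within a list. In the strength parts, lincRNA peaks that also overlap a coding promoter window are left out. Motif shares by CpG class use the largest peak at each lincRNA start and every peak at coding starts. The 15 motifs were searched on both strands. Python 3.11.15, numpy 2.4.6 and pandas 2.3.3 were used, and overlaps were checked against bedtools 2.31.1 and tested on simulated data. Named genes were the 8 with the largest WT area among those in all 3 lists, per pattern of presence and per direction of rank shift the 5 with the largest area or shift (for patterns, members whose peak overlaps none of a list lacking it came first), per gene list (14 lists) those in some lists and up to 5 others, and the 5 open members farthest from a coding start. The members and lists were chosen with earlier results of these data known. Alternatives were other windows, distances, coding starts, list lengths, thresholds, overlap rules, rank measures and sequence windows. Leaving out members inside coding genes or on chromosome 8 was chosen after seeing the data.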

Additional observations from a re-analysis of the deposited data

How the results depend on the processing

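No paired analysis was possible because each list pools both samples of a genotype, so neither sample could be left out in turn. Of 147 values recomputed under 16 settings, 92 stayed within their interval or within 1.5 times and 55 did not. The cause was not tested. Only the median rank shifts could change sign, and they did not. The other values are shares, counts, percentiles or ratios, which cannot be negative.

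Shares with a peak are given for WT, E545K and H1047R, then the share open in all 3. A window of 500 bp gave 16.1%, 15.7%, 16.7% and 13.8%. One of 2 kb gave 25.1%, 23.9%, 26% and 21.2%, with 443 members in WT and not E545K. Starts more than 20 kb from a coding start gave 17.7%, 17.0%, 18.6% and 15.2%, with 145 in E545K and not WT and 101 in E545K and not H1047R. Lists of equal length gave 18.1% in WT, 18.1% in H1047R and 15.7% in all 3, with 263 in E545K and not H1047R and 196 the other way, so that the order of this pair of counts turned, as did that of E545K and WT (284 and 214). The upper 50% of each list gave 13.2%, 12.7%, 13.6% and 11.3%, with 141 in E545K and not WT and 241 in H1047R and not E545K. A summit inside the window gave 17.1%, 16.5%, 17.9% and 14.4%, with 27.7% of those with a peak in some lists. With 1 window per overlapping group the shares were 18.2%, 17.6%, 19.1% and 15.4%, with any transcript start 22.1%, 21.5%, 23.1% and 19%, and outside coding gene bodies 20.9%, 20.2%, 21.7% and 18.0%, with 24.2% in some lists.

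Ranked by area over width, the median percentiles were 58.8, 57.3 and 59.5 and the median shifts -0.413 in E545K and 0.388 in H1047R. Ranked by −log10 p, the percentiles were 64.0 in WT and 62.1 in E545K and the shifts -1.54 and 0.248. Over the whole window the CpG ratio was 0.325 in members open in all 3 and 0.226 in those with no peak. Depth is unknown, so its limit on weak peaks could not be measured.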
